A study of Homo sapiens with 4 samples.

Results

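The HOX genes are the clustered homeobox genes HOXA, HOXB, HOXC and HOXD, and 28 of them could be read on 4 one-colour Affymetrix arrays of human lung adenocarcinoma cells. A member is a gene with such a symbol and at least 1 probe set to which the platform annotation gives exactly 1 gene symbol. Antisense genes were left out, and each gene was read from its probe set with the highest mean log2 signal over the 4 arrays. The 28 members are part of 19738 genes named in this way. They are 1 HOXA gene (HOXA2), 10 HOXB genes, 9 HOXC genes and 8 HOXD genes. The other 11 HOX genes of the RefSeq gene table, 10 of HOXA and HOXD3, had no probe set that met the rule and were not analysed here.

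The groups were CL1-5 cells with a PSAT1 hairpin, CL1-5 cells with a non-silencing hairpin, CL1-0 cells with a PSAT1 expression vector and CL1-0 cells with the control vector, with 1 array each. The labels give stable transduction, 2 weeks under puromycin and an alveolar type II cell type for each group. CL1-5 is an invasive subline selected from the lung adenocarcinoma line CL1-0. PSAT1 is the transaminase of serine synthesis. With 1 array a group there is no replicate and no test. A difference between 2 arrays is called a rise or a fall when it reaches 2-fold, which is a rule of size alone.

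HOX proteins are transcription factors that bind DNA through a homeodomain, usually together with PBX and MEIS proteins, and give cells their position along the body axis. Genes of each cluster lie in the order in which they are used, from the head end (low paralog numbers) to the tail end and limb tips (high numbers). Polycomb proteins keep clusters silent, trithorax proteins keep them active, and retinoic acid opens them from the low-numbered end. In the developing lung mainly genes of low and middle number are used, and cancer cells often carry altered HOX sets.

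Signals are MAS5 values on a linear scale. A floor at a signal of 49.0, the pooled median of the probe sets other than controls, was used in place of detection calls. Values under it were set to it before ratios were taken, and a fold against an array at the floor is a lower bound, written "at least". PSAT1 itself read 143 with its hairpin and 1760 with the non-silencing hairpin in CL1-5, 12.3-fold lower. In CL1-0 it read 5494 with the PSAT1 vector and 4214 with the control vector, a difference of 1.30-fold. The sources used here do not say where the PSAT1 probes lie relative to the introduced sequence. Of 9 named alveolar type II markers, 7 were above the floor on all 4 arrays, while SFTPD and SLC34A2 were below it on all 4. Over all genes, 63.2% to 65.4% were above the floor on an array. NAPSA (62.3 to 67.9) and NKX2-1 (63.1 to 90.5) lay near the floor. SFTPB, SFTPC, LAMP3 and ABCA3 read between 99.9 and 268, and ETV5 read 496 to 758. The alveolar type II label was not tested with these markers. The epithelial markers EPCAM, CDH1 and KRT19 were also below the floor on all 4 arrays, whereas KRT8 and KRT18 were above it on all 4. The immune markers PTPRC, CD3E and LYZ were below the floor on every array, as was CDH5 of 3 endothelial markers.

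RefSeq promoter windows (GRCh38.p14, from 250 bases before to 50 after a gene's start) were found for 11 members. HOXD13, HOXD11, HOXD10 and HOXD8 were lower on the CL1-5 non-silencing array than on the CL1-0 vector array. HOXD12, which lies among them, was below the floor throughout. For that reason the windows of these 5 HOXD genes are shown. They read 5′ to 3′, and capitals mark matches on either strand to the PBX-HOX site TGATNNAT, the MEIS site TGACAG, the TATA box TATAAA and the E-box CACGTG.
HOXD13, chr2:176092471-176092770, plus strand: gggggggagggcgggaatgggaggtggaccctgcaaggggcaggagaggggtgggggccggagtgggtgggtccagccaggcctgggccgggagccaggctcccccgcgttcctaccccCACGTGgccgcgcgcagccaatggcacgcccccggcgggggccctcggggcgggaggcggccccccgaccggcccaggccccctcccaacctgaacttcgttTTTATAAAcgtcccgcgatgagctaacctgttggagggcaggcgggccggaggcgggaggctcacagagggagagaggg
HOXD12, chr2:176099545-176099844, plus strand: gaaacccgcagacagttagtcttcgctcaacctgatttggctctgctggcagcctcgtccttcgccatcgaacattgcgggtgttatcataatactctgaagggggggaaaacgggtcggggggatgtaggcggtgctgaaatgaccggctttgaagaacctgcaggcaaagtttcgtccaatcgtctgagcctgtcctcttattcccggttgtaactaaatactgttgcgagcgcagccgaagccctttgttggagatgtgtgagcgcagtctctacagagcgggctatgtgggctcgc
HOXD11, chr2:176107030-176107329, plus strand: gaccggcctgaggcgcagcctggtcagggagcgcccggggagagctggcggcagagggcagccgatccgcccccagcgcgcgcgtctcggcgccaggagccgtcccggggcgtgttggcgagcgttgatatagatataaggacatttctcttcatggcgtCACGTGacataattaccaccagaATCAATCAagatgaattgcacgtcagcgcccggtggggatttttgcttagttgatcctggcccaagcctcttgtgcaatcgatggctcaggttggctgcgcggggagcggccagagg
HOXD10, chr2:176116528-176116827, plus strand: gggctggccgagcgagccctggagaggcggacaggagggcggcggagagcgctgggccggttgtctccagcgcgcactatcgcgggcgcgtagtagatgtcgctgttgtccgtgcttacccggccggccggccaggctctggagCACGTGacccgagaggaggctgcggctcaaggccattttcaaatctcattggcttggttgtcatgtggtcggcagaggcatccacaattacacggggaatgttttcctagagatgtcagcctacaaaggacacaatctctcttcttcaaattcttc
HOXD8, chr2:176129455-176129754, plus strand: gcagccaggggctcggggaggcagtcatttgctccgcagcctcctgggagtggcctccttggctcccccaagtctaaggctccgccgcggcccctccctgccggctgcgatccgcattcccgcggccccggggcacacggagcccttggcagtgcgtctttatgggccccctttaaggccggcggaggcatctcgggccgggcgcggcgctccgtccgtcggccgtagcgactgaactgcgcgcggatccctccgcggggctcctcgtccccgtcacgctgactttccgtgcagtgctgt
The HOXD13, HOXD11 and HOXD10 windows each hold CACGTG, as does that of HOXD1, and 7.26% of 35116 windows of the same length hold it. The 4 motifs were chosen with the members' values known. TATAAA occurs in the HOXD13 window alone among the 11 members, as 2 overlapping matches on opposite strands, against 11.5% of all windows. TGATNNAT is in the windows of HOXD11, HOXA2 and HOXB1 (7.40% of all windows), and TGACAG in those of HOXA2 and HOXD4 (15.8%). The windows of HOXD12 and HOXD8 hold none of the 4 motifs. G and C made up 74.0% of the HOXD13 window, 54.3% of the HOXD12 window and 71.7% of the HOXD8 window, against a median of 58.7% over all windows. The 11 members ranged from 4 CG pairs (HOXD4) to 36 (HOXD1), with 34 for HOXD8 and a median of 14 over all windows. HOXC4 and HOXC5 have the same window, and RefSeq gives HOXC4, HOXC5 and HOXC6 the same first base.

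Most HOX genes were above the floor in CL1-0 and fewer in CL1-5. The members above the floor numbered 19 of 28 with the PSAT1 hairpin and 18 with the non-silencing hairpin in CL1-5, and 24 with PSAT1 and 26 with vector in CL1-0. Over all genes the shares were 64.1%, 63.2%, 63.7% and 65.4% on the same arrays. Against these, 67.9% and 64.3% of members were above the floor on the CL1-5 arrays, and 85.7% and 92.9% on the CL1-0 arrays. The contrast was smaller after quantile normalization, after median centring and with a lower floor, but not with a higher floor. In the same order the members numbered 21, 19, 23 and 25 after quantile normalization and 21, 20, 23 and 24 after median centring. With the floor at the 25th percentile they numbered 25, 25, 26 and 27, and with the floor at the 65th percentile 12, 10, 17 and 20. The shares over all genes are not given for these settings. On all 4 arrays 17 members passed the floor of 49.0, and 2 passed it on none. Those 2 were HOXC12 (15.1 to 19.7) and HOXD12 (13.7 to 16.0), neighbours of the most posterior gene in their clusters. The pooled 75th percentile of all probe sets, a signal of 213, was reached by 5, 5, 7 and 11 members on the arrays in that order. That is 17.9%, 17.9%, 25% and 39.3% of members, against 36.6%, 36.8%, 43.0% and 41.5% of all genes. Fewer cells that transcribe a gene and less RNA per cell cannot be told apart in these bulk samples.

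**Figure D1:**
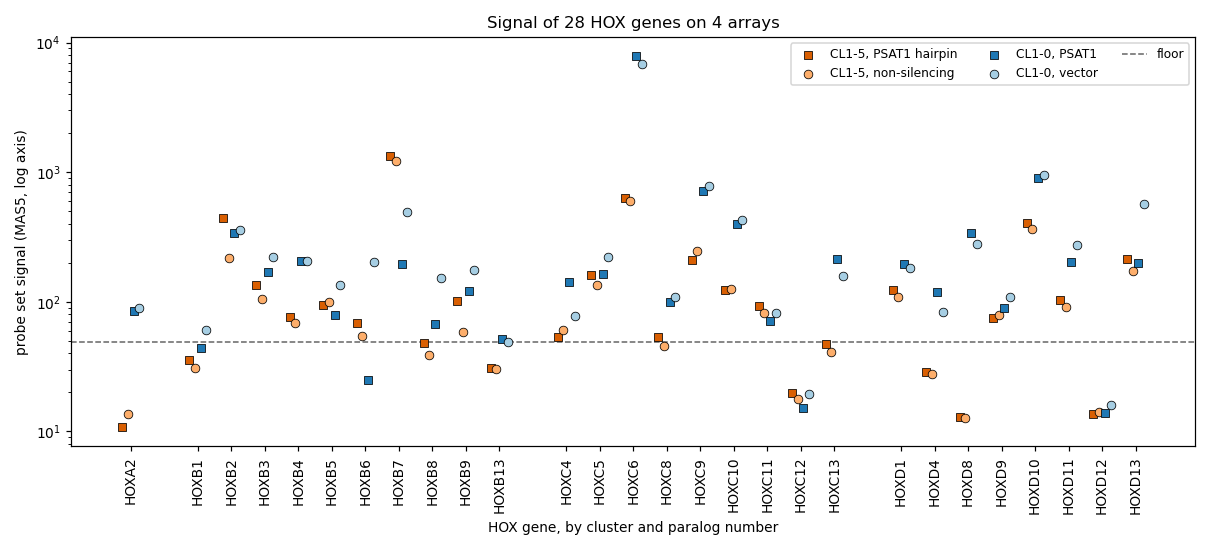
MAS5 signal (log axis) of the 28 HOX genes, grouped by cluster, with 1 point per array and the floor of 49.0 as a dashed line. The CL1-0 points lie above the CL1-5 points for most genes, with HOXB7 the other way round.

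Between the control arrays of the lines, 14 of 26 measured members were lower in CL1-5 with the non-silencing hairpin than in CL1-0 with vector, and 1 was higher. The background for falls was 24.7% of all measured genes and for rises 5.14%. HOXC6, a trunk patterning gene, was 11.4-fold lower, HOXD8 at least 5.71-fold lower, and HOXB7 was 2.46-fold higher. The HOXC6 and HOXB7 probe sets are of the kind that may match several transcripts. The members' median log2 ratio was -1.11, against -0.48 over all genes, and 25 of 26 ratios were below 0 against 76.8% of all genes. The 25 include HOXC11 (-0.0082) and HOXB13 (a bound of -0.00035), both close to 0. At 3-fold, 9 members were lower against 8.93%. Quantile normalization took the median of all genes to 0.00 and that of the members to -0.73. It left 12 of 25 members lower against a background of 8.87%, and 1 higher against 9.40%. Median centring left 8 of 24 lower against 8.59%, and 1 higher against 10.1%. Ratios below 0 numbered 23 of 25 after quantile normalization, against 6828 of 13685 genes. With median centring they numbered 19 of 24, against 6055 of 13864 genes. Over all genes, the share of rises among 2-fold differences was 17.2% as deposited, 51.4% under quantile normalization and 54.1% under median centring. Markers also differed between these arrays. KRT8 was 16.3-fold and KRT18 7.01-fold higher in CL1-5, the endothelial marker PECAM1 was 2.15-fold higher, and the fibroblast marker COL3A1 was at least 6.37-fold lower. COL3A1 was above the floor on the CL1-0 vector array alone. No other fibroblast or endothelial marker of the lists reached 2-fold. COL1A1 had 0.13, THY1 0.12, PDGFRB a bound of -0.31 and VWF a bound of 0.05, and the others were below the floor. The part of the markers in the HOX result was not tested. Line and construct differ together in this comparison and cannot be told apart, and its 2 arrays are also the controls of the PSAT1 pairs below.

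**Figure D2:**
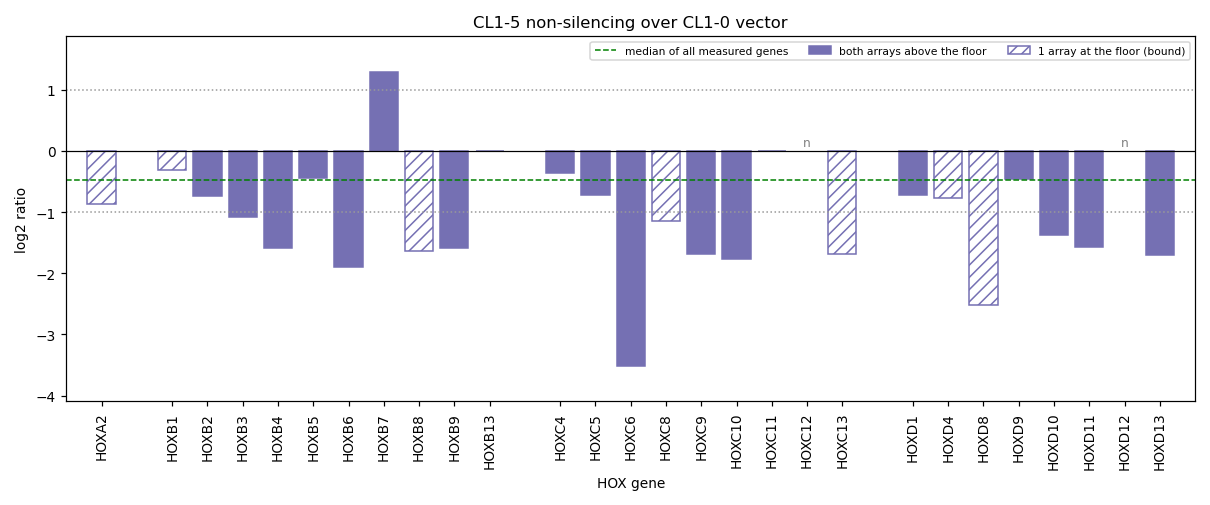
Log2 ratio of signal in CL1-5 with the non-silencing hairpin over CL1-0 with vector for each HOX gene. Filled bars have both arrays above the floor, hatched bars are bounds, n marks genes not measured, dotted lines mark 2-fold and the dashed line the median of all measured genes (-0.48).

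**Figure D3:**
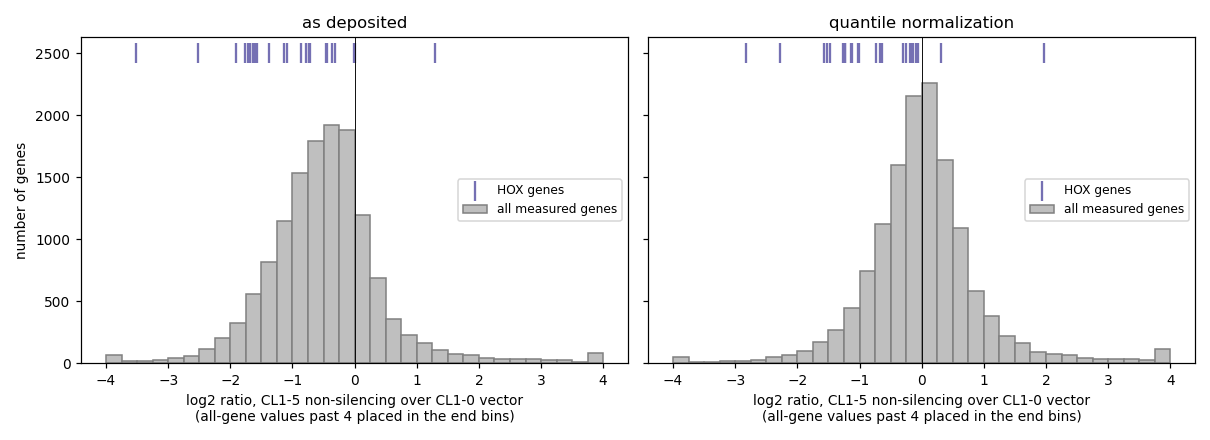
Number of genes by log2 ratio of CL1-5 with the non-silencing hairpin over CL1-0 with vector, as deposited and after quantile normalization, with each HOX gene as a tick above. The HOX ticks lie mostly left of 0 in both panels, with medians of -1.11 and -0.73.

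The HOXC cluster, on chromosome 12, had 5 falls among 8 measured members as deposited and a median log2 ratio of -1.41. Over all measured genes 24.7% fell and the median was -0.48. HOXC6 read 633 with the PSAT1 hairpin and 596 with the non-silencing hairpin in CL1-5, and 7904 with PSAT1 and 6798 with vector in CL1-0. HOXC10, a gene of the lumbar region and hindlimb in mice, read 123 and 125 in CL1-5, and 401 and 428 in CL1-0, in the same order of constructs. HOXC9, a thoracic gene that represses forelimb motor neuron fates in mice, read 211 and 245 in CL1-5, and 715 and 786 in CL1-0. For all 3 genes every CL1-5 array lay below every CL1-0 array by more than 2-fold, while the arrays within a line differed by less than 1.5-fold. HOXC9 was 3.21-fold lower and HOXC10 3.41-fold lower between the controls. HOXC13, which in mice and humans is needed for hair and nails, read 47.6 and 40.9 in CL1-5, and 215 and 158 in CL1-0, at least 3.23-fold lower between the controls. The only probe sets of HOXC6 and HOXC13 may match several transcripts, so neither gene had a value without such probe sets. HOXC8 read 53.5 and 45.7 against 99.1 and 108, at least 2.20-fold lower, and was under 2-fold with median centring. The other members of this cluster did not reach 2-fold. HOXC4 read 53.6 and 60.9 in CL1-5, and 142 and 78.4 in CL1-0, HOXC5 read 162 and 134, and 165 and 220.3, and HOXC11 read 93.2 and 82.1, and 71.2 and 82.5. HOXC11 was thus the 1 measured member of the cluster whose arrays overlapped between the lines.

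The HOXD cluster, on chromosome 2, had 4 falls among 7 measured members as deposited and a median of -1.38. All measured genes had 24.7% falls and a median of -0.48. HOXD8 read 12.9 and 12.8 on the CL1-5 arrays with PSAT1 and non-silencing hairpin, and 339.5 and 280.0 on the CL1-0 arrays with PSAT1 and vector. Both CL1-5 values were under the floor and both CL1-0 values well above it. HOXD10, which is expressed in the developing limb and spinal cord, read 403 and 363 in CL1-5, and 899.8 and 944 in CL1-0. HOXD11, which acts with its HOXA paralog in forearm and kidney development in mice, read 103 and 91.7 in CL1-5, and 202 and 273 in CL1-0. Both were called as deposited, at 2.60-fold and 2.97-fold lower between the controls. HOXD10 was under 2-fold after quantile normalization (-0.67) and median centring (-0.76), and HOXD11 after median centring (-0.96). HOXD10 had 3 probe sets with log2 ratios of -1.38, -0.70 (a bound) and 0.11, so its probe sets disagree. HOXD13, the gene of the digits, was 3.27-fold lower and is described with the CL1-0 pair below. HOXD1 read 124 and 109 against 197 and 181 (-0.73), and HOXD9 74.9 and 78.9 against 89.97 and 109 (-0.46), both under 2-fold. HOXD4 had a bound of -0.78. HOXD4 was under the floor on both CL1-5 arrays (28.8 and 27.7) and above it on both CL1-0 arrays (119 and 83.9).

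The HOXB cluster, on chromosome 17, held both directions as deposited, with 5 falls and 1 rise among 10 measured members and a median of -0.91. All measured genes had 24.7% falls, 5.14% rises and a median of -0.48. HOXB7, a middle gene of the cluster whose forced expression in breast cancer cells has been linked to invasion, read 1323 and 1212 in CL1-5, and 197 and 493 in CL1-0. Both CL1-5 arrays lay above both CL1-0 arrays by more than 2-fold, and no other HOX gene had that order. Its 3 probe sets had log2 ratios from 1.0 to 1.34 between the controls. HOXB6 and HOXB8 on either side were lower. HOXB4, known for expanding blood stem cells when overexpressed, read 76.0 and 68.9 in CL1-5, and 206 and 208 in CL1-0, 3.02-fold lower (-0.98 after median centring). HOXB9 read 102 and 58.6 against 122 and 175, HOXB3 read 135 and 104 against 171 and 222, and HOXB8 read 47.7 and 38.9 against 67.7 and 153. Between the controls HOXB9 was 2.99-fold lower, HOXB3 2.12-fold and HOXB8 at least 3.12-fold. HOXB3 was under 2-fold after quantile normalization (-0.65), median centring (-0.47) and with the mean over probe sets (-0.54), and HOXB9 after median centring (-0.97). Averaging the probe sets took HOXB8 to -0.82 and HOXB6 to -0.95. Their second probe sets were below the floor on all 4 arrays and entered the mean at the floor. HOXB6 was 3.75-fold lower but its CL1-5 arrays (68.8 and 54.1) lay between the CL1-0 arrays with PSAT1 (25.1) and vector (203). HOXB2 (-0.73) and HOXB5 (94.4 and 99.9 in CL1-5, -0.44) did not reach 2-fold. HOXB1, a hindbrain gene, read 35.5 and 31.1 in CL1-5, and 43.7 and 61.1 in CL1-0, above the floor on the vector array alone. HOXB13, a prostate lineage gene, read 31.1 and 30.4 in CL1-5, and 51.8 and 49.0 in CL1-0, close to the floor. With the floor at the 65th percentile HOXB6, HOXB8, HOXB9, HOXC8 and HOXC13 no longer reached 2-fold between the controls. HOXA2, a hindbrain patterning gene on chromosome 7, read 10.7 and 13.6 in CL1-5, and 85.4 and 89.3 in CL1-0, a bound of -0.87 on the log2 scale.

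Read by paralog number, the median log2 ratio between the control arrays was -0.73 over 5 members of groups 1 to 3, -1.14 over 11 of groups 4 to 8 and -1.58 over 10 of groups 9 to 13. Falls numbered 1, 6 and 7 in the same order, against 24.7% of all genes. After quantile normalization the medians were -0.31, -1.0 and -1.13 with 0 of 5, 6 of 11 and 6 of 9 falls, against 8.87%. Under median centring they were -0.29, -0.63 and -0.97 with 0 of 4, 4 of 11 and 4 of 9 falls, against 8.59%. The order of the medians changed with the floor. With the floor at the 25th percentile they were -0.98, -1.59 and -1.57 over 5, 11 and 11 members. With the floor at the 65th percentile they were -0.73, -0.72 and -1.40 over 3, 9 and 8 members. Over all 4 arrays, 19 of 26 members (73.1%) had both CL1-5 arrays below both CL1-0 arrays, against 62.9% of all measured genes, and 1 had them above, against 15.9%. After quantile normalization 14 of 25 members were below and 2 above, against 34.4% and 38.7% of all genes. Under median centring 11 of 24 were below and 4 above, against 29.1% and 45.7%. With the floor at the 65th percentile 12 of 22 were below (54.5%), against 67.9% of all genes, so there the members' share was under the background. With a gap of at least 2-fold there were 7 such members (26.9%), against 17.0% of all genes, and 1 above, against 3.55%. Those below were HOXB4, HOXC6, HOXC9, HOXC10, HOXC13, HOXD8 and HOXD10. The arrays of a line carry different constructs and are not replicates.

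In CL1-0 cells with PSAT1, 4 of 26 measured HOX genes were lower than with vector, and 0 were higher. The background was 1.0% lower and 2.40% higher over all measured genes. The 4 were HOXD13 and the adjacent genes HOXB6, HOXB7 and HOXB8. HOXB6, HOXB8 and HOXD13 were also called lower between the control arrays. Both comparisons use the CL1-0 vector array, where each of these genes was highest, so their falls in the 2 comparisons are not independent. The members' median was -0.13 against -0.02 over all genes, and 19 of 26 ratios were below 0 against 51.9% of all genes. Quantile normalization left 4 members lower (background 1.04%) and 0 higher (1.67%), and median centring 4 lower (1.16%) and 0 higher (1.90%).

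HOXD13 read 199 with PSAT1 against 564 with vector, a 2.84-fold fall. As deposited, its signal with PSAT1 was within the range of the CL1-5 arrays. These read 215 with the PSAT1 hairpin and 173 with the non-silencing hairpin. After rescaling it lay below both CL1-5 arrays. Under quantile normalization the log2 ratio to the CL1-0 vector array was -1.53 with PSAT1 and -1.13 with the non-silencing hairpin. Under median centring these ratios were -1.58 and -1.09. All 3 HOXD13 probe sets fell, with log2 ratios of -1.51, -1.77 and -1.08. HOXD13 mutations cause fused and extra digits in humans. Its neighbour HOXD11 read 202 with PSAT1 against 273 with vector (log2 ratio -0.43), and HOXD10 read 899.8 against 944 (-0.07). HOXD8 (0.28), HOXD4 (0.51) and HOXD1 (0.12) were slightly higher and HOXD9 (-0.27) slightly lower, all under 2-fold. The other HOXD4 probe set went the other way, with 45.5 against 58.5 (a bound of -0.26). In this cluster the fall was therefore at 1 gene of 7 measured.

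In the HOXB cluster 3 adjacent genes fell. HOXB6 was at 25.1 on the PSAT1 array against 203 on the vector array, at least 4.14-fold lower, and was the 1 member to pass 3-fold (background 0.403%). HOXB7 read 197 against 493, a 2.50-fold fall, and its other probe sets had log2 ratios of -1.22 and -0.43. HOXB8, which can immortalise myeloid progenitors in mice, read 67.7 against 153, a 2.26-fold fall, and its other probe set was below the floor on all 4 arrays. These 3 genes are consecutive in RefSeq, and the genes on either side also had negative ratios under 2-fold. HOXB5, a gene of lung branching in mice, read 78.5 against 136 (-0.79), and HOXB9 read 122 against 175 (-0.53). Toward the low-numbered end the ratios were -0.02 for HOXB4, -0.38 for HOXB3, -0.09 for HOXB2 and a bound of -0.32 for HOXB1. At the far end HOXB13 had 0.08. The HOXB6, HOXB7 and HOXB8 probe sets are of the kind that may match several transcripts. Without such probe sets these 3 genes had no measured value, and 1 of the 4 falls was left, HOXD13. With the mean over probe sets HOXB7 had -0.99 and HOXB8 -0.59. The second probe set of HOXB8 entered that mean at the floor. With the floor at the 65th percentile HOXB6 and HOXB8 no longer reached 2-fold.

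The HOXC genes had no 2-fold change in this pair (8 measured, median -0.11). The largest ratio was HOXC4, with 142 in PSAT1 cells against 78.4 in vector cells (0.86). HOXC5, which shares its first base with HOXC4, had -0.41, and HOXC6 had 0.22. HOXC13 had 0.44, and HOXC8, HOXC9, HOXC10 and HOXC11 lay between -0.21 and -0.09. HOXA2 had -0.07. Of 7 fibroblast markers, COL3A1 fell in the same pair (27.4 with PSAT1 against 312 with vector), and no other marker of the list reached 2-fold. The summed signal of the list was 434 with PSAT1 against 779 with vector, a difference that lies mostly in COL3A1. LUM, DCN and COL1A2 were below the floor on both arrays. The part of these markers in the HOX result was not tested.

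**Figure D4:**
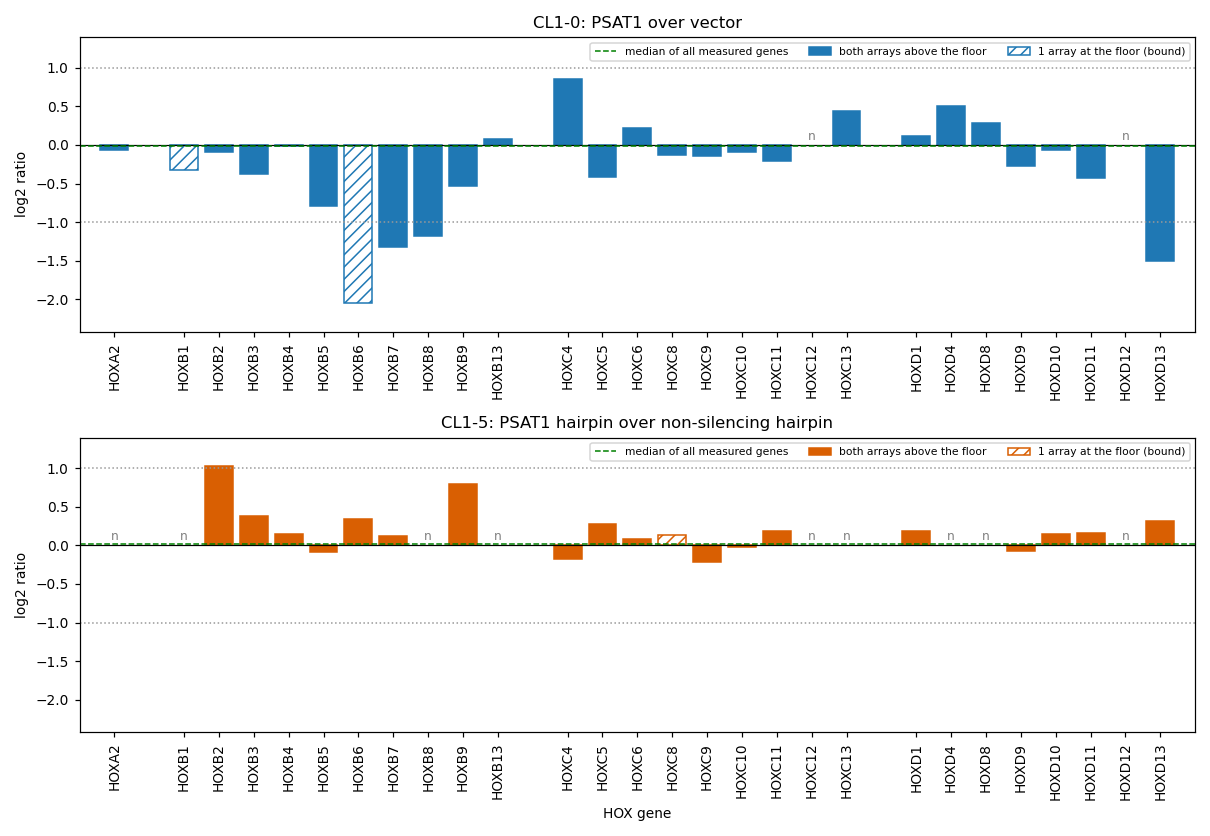
Log2 ratio of each HOX gene in CL1-0 (PSAT1 over vector, top) and in CL1-5 (PSAT1 hairpin over non-silencing hairpin, bottom), drawn to the same scale, with hatched bars for bounds, n for genes not measured and dotted lines at 2-fold. In CL1-0 HOXB6, HOXB7, HOXB8 and HOXD13 pass the lower line, and in CL1-5 HOXB2 passes the upper line.

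**Figure D5:**
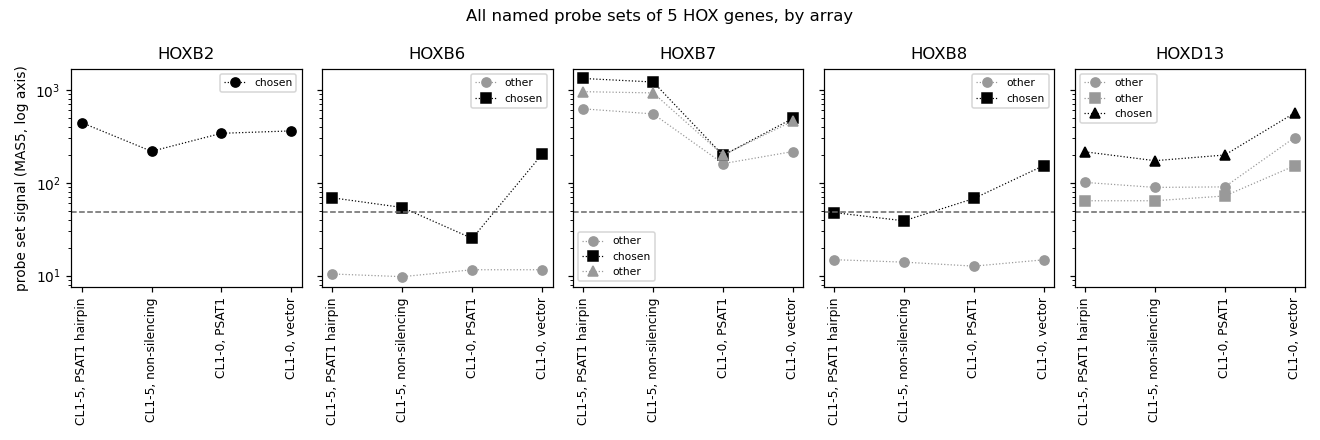
MAS5 signal (log axis) of every named probe set of HOXB2, HOXB6, HOXB7, HOXB8 and HOXD13 on each array, with the chosen probe set in black, the others in grey and the floor of 49.0 dashed. All 3 HOXD13 probe sets are highest on the CL1-0 vector array, and the second probe sets of HOXB6 and HOXB8 lie below the floor on all arrays.

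In CL1-5 cells with the PSAT1 hairpin, 1 of 19 measured HOX genes was higher than with the non-silencing hairpin, and 0 were lower. The background was 0.389% higher and 0.405% lower. HOXB2, a hindbrain patterning gene with 1 probe set, was at 443 on the hairpin array against 218 on the non-silencing array, a 2.04-fold rise. As deposited, the CL1-0 arrays lay between these values, at 340.1 with PSAT1 and 361 with vector. After rescaling the CL1-0 PSAT1 array was slightly below both CL1-5 arrays. The HOXB2 log2 ratios to the CL1-0 vector array were -0.16 with PSAT1 and -0.14 with the non-silencing hairpin under quantile normalization. Under median centring they were -0.16 and -0.11. HOXB9 had the next largest ratio, with 102 against 58.6 (0.80). HOXB3 read 135 against 104 (0.37), HOXB6 68.8 against 54.1 (0.35), HOXD13 215 against 173 (0.32) and HOXC5 162 against 134 (0.28). The remaining 13 measured members had ratios between -0.21 (HOXC9) and 0.18. The median was 0.15 against 0.02 over all genes, and 14 of 19 ratios were above 0 against 52.8% of all genes. By cluster the medians were 0.35 for HOXB (7 measured), 0.09 for HOXC (7) and 0.16 for HOXD (5). Log2 ratios of probe sets of the same gene had an SD, taken across genes, of 0.175 here, 0.289 for PSAT1 over vector and 0.513 for the control arrays of the lines. That spread does not replace a replicate.

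The CL1-0 and CL1-5 pairs share no array, and 19 members were measured in both. Of these, 12 had a ratio below 0 with PSAT1 in CL1-0 and above 0 with the hairpin in CL1-5, against 30.9% of all genes measured in both. The reverse held for 1 member, HOXC4, against 25.3% of all genes. These signs were counted at any size, and some ratios were small in both pairs. HOXB4 had -0.02 and 0.14, HOXD10 -0.07 and 0.15, and HOXC8 -0.12 and a bound of 0.13. No member reached 2-fold in both pairs. HOXD13 had -1.51 with PSAT1 in CL1-0 and 0.32 with the hairpin in CL1-5, and HOXB6 had a bound of -2.05 and 0.35. HOXB9 had -0.53 and 0.80, and HOXB2 had -0.09 and 1.03.

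Genes that work with HOX proteins or act on the clusters were read in the same comparisons, with the same backgrounds (24.7% lower and 5.14% higher between the controls, 8.87% and 9.40% after quantile normalization). Of 10 named cofactors of the TALE homeodomain class, 0 reached 2-fold in either PSAT1 pair, with the largest ratio in MEIS2 (1059 with PSAT1 against 559 with vector in CL1-0, 0.92). Between the controls 3 were lower in CL1-5, TGIF2 (2.64-fold), TGIF1 (2.41-fold) and PBX2 (2.13-fold), and 0 were after quantile normalization. Of 22 Polycomb genes, 0 reached 2-fold in either PSAT1 pair. Between the controls 9 were lower and 1 higher in CL1-5, and 5 lower and 2 higher after quantile normalization. EZH2, the enzyme that places the repressive mark on histone H3, read 608 and 620.1 on the CL1-5 arrays with PSAT1 and non-silencing hairpin, and 2006 and 2482 on the CL1-0 arrays with PSAT1 and vector. CBX2, which reads that mark, was 5.60-fold lower between the controls, AEBP2 4.53-fold lower and PHC2 2.31-fold higher. Of 16 trithorax and MLL genes, 6 were lower between the controls and 0 higher (4 and 0 after quantile normalization). The 3 with the largest ratios were KMT2C (5.96-fold), KDM6B (4.45-fold) and KMT2D (4.39-fold).

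Of 12 measured CDX and retinoid genes, 5 were lower between the controls and 0 higher (background 24.7% and 5.14%), and 5 of the 12 ratios were above 0. Their median log2 ratio was -0.47, against -0.48 over all genes. After quantile normalization 4 were lower. ALDH1A1, which makes retinoic acid, read 8.16 and 7.85 in CL1-5, and 5714 and 7219 in CL1-0, at least 147-fold lower between the controls. CYP26B1, which breaks it down, was 20.0-fold lower between the controls, and RARB, a retinoic acid receptor, 14.3-fold lower. In CL1-0, CYP26A1 read 561 with PSAT1 against 60.8 with vector (9.23-fold higher), and CYP26B1 read 1053 against 2460 (2.34-fold lower). These were the 2 changes among 12 measured genes of this list in that pair, and the CL1-5 pair had 0 among 10. The CDX genes are homeobox activators of HOX clusters. CDX1 read 101 and 93.2 in CL1-5, and 82.6 and 92.1 in CL1-0 (0.02 between the controls), and CDX4 read 60.4 and 59.9, and 56.8 and 56.4 (0.09). CDX2 read 50.7 and 47.9 in CL1-5, and 109 and 107 in CL1-0, at least 2.19-fold lower between the controls.

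Noncoding genes and neighbours of the clusters were compared as well. Of 11 named noncoding genes of the clusters, HOTAIR, HOTTIP, HOXA11-AS and HOXC-AS3 were below the floor on all 4 arrays. HOXD-AS2 read 51.4 and 47.3 in CL1-5, and 268 and 204 in CL1-0, at least 4.17-fold lower between the controls. No other gene of this list reached 2-fold in any of the 3 comparisons. HAGLR, which overlaps HOXD1, read 292 and 225 in CL1-5, and 367 and 193 in CL1-0, with 0.92 for PSAT1 over vector. Of 15 measured genes flanking the clusters, 2 were lower between the controls, SKAP2 (2.47-fold) and EVX1 (2.05-fold), both beside the HOXA cluster. That is 13.3%, under the background of 24.7%, and 0 were lower after quantile normalization. None of the 15 reached 2-fold in either PSAT1 pair. Homeobox genes of other families had 11 falls and 3 rises among 34 between the controls, with a median of -0.49, and 7 falls and 4 rises after quantile normalization. The background was 24.7% falls and 5.14% rises as deposited, and 8.87% and 9.40% after quantile normalization. DLX2 was 18.4-fold lower and IRX2 at least 16.3-fold lower. EMX2 was the 1 such gene to change in a PSAT1 pair. In CL1-0 its signal was 34.2 on the PSAT1 array and 238 on the vector array, a fall of at least 4.86-fold. EMX2 was above the floor on the CL1-0 vector array alone.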

How the data were processed

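Total RNA from 4 cultures was labelled as biotinylated cRNA from 6 ug, per the labels, and hybridised to 1 Affymetrix array each. The deposited values are linear MAS5 intensity per probe set, made by the authors with MAS5, per the submitters' processing notes. The sources used here do not give its version or scaling target. Detection calls were not used. The table held 54675 probe sets, 62 of them controls. The platform annotation gave 1 symbol to 41097, several to 1801 and listed none for 11777. Symbols were updated through RefSeq for 41043, and 63 probe sets of Y-linked or X-inactivation genes were left out. The sources used here do not name the annotation's build.

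Signals were floored at the pooled 50th percentile and log2 transformed in Python 3.11.15 with pandas 2.3.3. A gene was measured in a pair if 1 array was above the floor. No test, SD or p-value was possible with 1 array per group, and the number of arrays limits precision. The ratio code was tested on simulated data. The members, gene lists and motifs were chosen with earlier results of these data known. All members are named. Of each related list, up to 4 members with the largest absolute log2 ratio in a comparison are named; PHC2, the CDX genes and the noncoding genes below the floor were added after their values were seen. RefSeq was used for gene order and promoter windows. No protein sequences were used here. Alternatives were quantile normalization, median centring, floors at the 25th and 65th percentile, choice of the probe set after the floor, the mean over probe sets, exclusion of multi-transcript probe sets and a 3-fold threshold.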

Additional observations from a re-analysis of the deposited data

How the results depend on the processing

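No paired analysis was possible because each group has 1 array. Choosing the probe set after the floor changed no count or median of the HOX genes, and no call reversed under any of the 8 alternatives. For CL1-0 with PSAT1 over vector, the 4 falls were 2 with the 65th percentile floor, 2 with the mean over probe sets, 1 without multi-transcript probe sets and 1 at 3-fold. Over all measured genes the falls in those settings were 93 of 10590, 79 of 13234, 97 of 10157 and 53 of 13165. For CL1-5 with the hairpin, the 1 rise was 0 at 3-fold, against 9 of 12850 genes. Between the control arrays, the 14 falls were 8 under median centring, 9 with the 65th percentile floor and 9 at 3-fold. The falls over all measured genes were 1191 of 13864, 2998 of 10777 and 1224 of 13704 in the same order. The 1 rise, HOXB7, was 0 without multi-transcript probe sets, where it has no probe set, and 0 at 3-fold. The rises over all measured genes were 509 of 10558 and 411 of 13704 there. Members with both CL1-5 arrays below both CL1-0 arrays (19) numbered 11 under median centring and 12 with the 65th percentile floor, where the share over all genes was 29.1% and 67.9%. Those above (1) numbered 2 under quantile normalization, 4 under median centring and 0 without multi-transcript probe sets, with 38.7%, 45.7% and 15.9% of all genes. With the 65th percentile floor, 12 members were above it on the hairpin array and 10 on the non-silencing array. In CL1-0 they numbered 17 with PSAT1 and 20 with vector. Between the control arrays HOXC9, HOXC10, HOXD8 and HOXD13 were called in all 7 alternatives other than 3-fold. HOXC6 and HOXB7 were called in the 6 that gave them a value. HOXD13 in CL1-0 and HOXB2 in CL1-5 were also called in all 7. For counts that fell with a higher floor or threshold, fewer genes could pass. Without multi-transcript probe sets HOXB6, HOXB7 and HOXB8 had no measured value. In the mean over probe sets, the second probe sets of HOXB6 and HOXB8 entered at the floor on all 4 arrays. For the other changes the cause was not tested. Signals near the floor limit most HOX ratios.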

Other observations

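The probe sets that the annotation assigns to HOXD3, HOXD4 and LOC401021 together were below the floor on all 4 arrays, with signals between 7.07 and 22.5. The probe set shared by HOXA10-AS and MIR196B read 31.8 with the PSAT1 hairpin and 28.2 with the non-silencing hairpin in CL1-5, and 29.8 with PSAT1 and 36.3 with vector in CL1-0. Of the 44 named HOX probe sets, 2 had identical values on both CL1-0 arrays and 3 on both CL1-5 arrays, against 1260 and 1749 of all probe sets.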
